A study of Mus musculus with 12 samples.

Results

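The 37 genes described here encode the enzymes that make cholesterol and fatty acids, with a few of their regulators and exporters, and were followed in mouse bone marrow-derived macrophages (BMMs), the precursors of osteoclasts. They were chosen as a list of gene symbols, all 37 of which were found among the 24421 genes that every library lists. The sterol branch holds 17 genes. The mevalonate and isoprenoid steps are Hmgcs1, Mvk, Pmvk, Mvd, Idi1 and Fdps, and the steps from squalene to cholesterol are Fdft1, Sqle, Lss, Cyp51, Tm7sf2, Msmo1, Nsdhl, Hsd17b7, Ebp, Sc5d and Dhcr7. The fatty acid branch holds 12 genes, with Acly, Acss2, Me1, Acaca and Fasn for carbon supply and chain synthesis and Scd1, Scd2, Fads1, Fads2, Elovl1, Elovl5 and Elovl6 for desaturation and elongation. The other members are the 5 regulators Srebf1, Srebf2, Scap, Insig1 and Stard4, the triglyceride enzyme Dgat2, and the sterol exporters Abca1 and Abcg1.

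Cells match lipid synthesis to supply through the sterol regulatory element-binding proteins, transcription factors that Srebf1 and Srebf2 encode. These proteins are held in the endoplasmic reticulum by the Scap and Insig proteins while sterol is plentiful. When sterol runs low they are released by proteolysis and switch on the synthesis genes, Insig1 itself and the low density lipoprotein receptor. The liver X receptors act in the opposite situation and switch on the exporters Abca1 and Abcg1, and also Srebf1 and the desaturase Scd1. Macrophages take up much sterol with their prey and depend on export. RANKL is the cytokine that turns BMMs into osteoclasts, large multinucleated cells whose fused membranes are rich in cholesterol.

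RNA-seq was performed on mouse BMMs in 2 experiments with 12 libraries in all. The study names C57BL/6 as the background in its crosses, and whether all libraries share that background was not tested. In the loss of function experiment, Mir182ΔM/ΔM cells carried Mir182flox/flox with LysMcre(+), and the WT cells carried Mir182+/+ with LysMcre(+). Both genotypes were grown with M-CSF for 3 days and then left without RANKL (Basal) or kept with RANKL for 5 days. The labels give no time after M-CSF for Basal cells, while the study's legend gives 5 days with or without RANKL. If the Basal cells were not kept for those 5 days, RANKL and time in culture cannot be told apart. In the gain of function experiment, Mir182mTg cells carried LSL-Mir182 with LysMcre(+), the Control cells carried LysMcre(+) alone, and both were Basal. The transgene sits in the Rosa26 locus behind a stop cassette that Cre removes. Thus every group carries the Cre recombinase, which the lysozyme M promoter drives in myeloid cells, and deletion or overexpression is limited to cells in which that promoter has been active. Each of the 6 conditions had 2 replicates. Replicate 1 is labelled polyA RNA and replicate 2 total RNA in every condition. The study's text calls the replicates biological, and neither it nor the labels say whether they came from separate mice or cultures, so p-values measure the spread between these libraries. The age of the mice is not given in the sources used here.

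miR-182 is the microRNA whose loss and gain were compared, so its sequence and the places where the members' 3′ UTRs could pair with its seed are shown. The mature mouse miR-182-5p is encoded on the minus strand of chromosome 6 (GRCm38.p6, chr6:30165962-30165986) and is given here from RefSeq with the seed, bases 2 to 8, in capitals.
mmu-miR-182-5p: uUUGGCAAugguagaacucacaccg
Either of the letter runs TTGCCAA, which pairs with the whole seed, or TGCCAAA, which pairs with bases 2 to 7 and has an A opposite base 1, was found on the sense strand of the annotated 3′ UTR of 6 of the 37 members, or 16.2%, against 4433 of 21153 genes with an annotated 3′ UTR, or 21.0%. The runs overlap where a UTR holds both. The 6 windows are given 5′ to 3′ on the gene's strand with the matched letters in capitals, and the matched bases lie in 3′ UTR exons (GENCODE vM21, GRCm38).
Abcg1 (chr17:31115910-31115916, plus strand): atggggttggTGCCAAAgaacccattc
Elovl1 (chr4:118432844-118432850, plus strand): aaaaggggggTTGCCAAgtctagctct
Insig1 (chr5:28078479-28078485, plus strand): aaggatgcttTTGCCAAtagttatagc
Sc5d (chr9:42254341-42254347, minus strand): aagggaataaTTGCCAAgtacttaaat
Scd1 (chr19:44395783-44395789, minus strand): ctgtgtaaggTGCCAAAcactcagttc
Tm7sf2 (chr19:6066204-6066210, minus strand): attcattcatTTGCCAAtatgttgctg
A match of letters is a description and not a site of action. The values of these 6 genes in each genotype stand with their groups in what follows.

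Between 24951280 and 33050619 reads per library were counted on genes, and values are given as CPM, which scale each library's counts to the same total. A value of 3 reads corresponded to 0.0908 to 0.120 CPM, and the lowest value of any member was 22 reads, for Dgat2. The WT RANKL libraries differed from the rest of their experiment in Lyz2 and Ifi202b, and also in the lipid gene Apoe, whose values are given below. Lyz2, which encodes lysozyme M, was at 4117 and 4288 CPM in WT RANKL but at 44.0 and 39.8 CPM in WT Basal, 34.6 and 31.2 CPM in Mir182ΔM/ΔM Basal and 24.0 and 22.5 CPM in Mir182ΔM/ΔM RANKL. In the other experiment it was at 5783 and 6615 CPM in Control and 6338 and 7062 CPM in Mir182mTg. Ifi202b, an interferon-inducible gene, was at 1.12 and 0.972 CPM in WT RANKL, at 0 in both Control libraries, at 0.0908 and 0 CPM in Mir182mTg, and between 82.1 and 152 CPM in the other 6 loss of function libraries. The following comparisons therefore rest on libraries that differ from their partners in more than the label says: RANKL against Basal in WT, Mir182ΔM/ΔM against WT after RANKL and the interaction. They cannot be computed without the WT RANKL libraries, whereas the RANKL response of Mir182ΔM/ΔM cells and the Basal genotype comparison do not use them and were also fitted without them.

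The row of the Mir182 precursor held no read in any library without the transgene except Mir182ΔM/ΔM Basal replicate 1, which had 0.0370 CPM, so the deletion could not be checked in these data, and it was at 2.39 and 4.40 CPM in the Mir182mTg libraries. The 7 macrophage markers were present in all groups, with summed levels from 5683 to 8655 CPM. The 8 osteoclast markers summed to 39.7 to 54.6 CPM in WT Basal, 9938 to 10274 CPM in WT RANKL, 44.1 to 59.7 CPM in Mir182ΔM/ΔM Basal and 3070 to 3079 CPM in Mir182ΔM/ΔM RANKL. Adipocyte markers, whose cells are rich in these enzymes, were at or near 0, with at most 0.0639 CPM over 6 genes. The 5 erythroid markers were likewise at most 0.0370 CPM in sum, the 8 lymphocyte markers at most 16.6 CPM and the 7 stromal markers at most 37.1 CPM. The neutrophil markers, of which 6 of 7 were listed, summed to 64.1 to 65.8 CPM in WT Basal, 13.9 to 15.0 CPM in WT RANKL, 80.6 to 81.0 CPM in Mir182ΔM/ΔM Basal and 4.73 to 5.63 CPM in Mir182ΔM/ΔM RANKL. Rn45s, the ribosomal RNA precursor, was at 742 to 1176 CPM in the replicate 1 and 9778 to 21273 CPM in the replicate 2 libraries. In bulk samples, fewer cells of a type and less RNA per cell cannot be told apart.

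Per kilobase, on the RPKM scale of replicate 1, the members spanned a wide range in WT Basal cells. Scd2, a desaturase, led at 138 RPKM, followed by Hmgcs1, the enzyme that makes the substrate of HMG-CoA reductase, at 135, the sterol demethylation enzyme Msmo1 at 128 and farnesyl diphosphate synthase, Fdps, at 102. ATP citrate lyase, Acly, was at 96.8 RPKM and the fatty acid synthase Fasn at 31.6 RPKM. At the low end were Dgat2 at 0.475, acetyl-CoA carboxylase Acaca at 3.85, malic enzyme Me1 at 4.15 and the isomerase Idi1 at 5.04 RPKM. These levels come from 1 library per condition, so neighbours in the order were not compared.

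**Figure D1:**
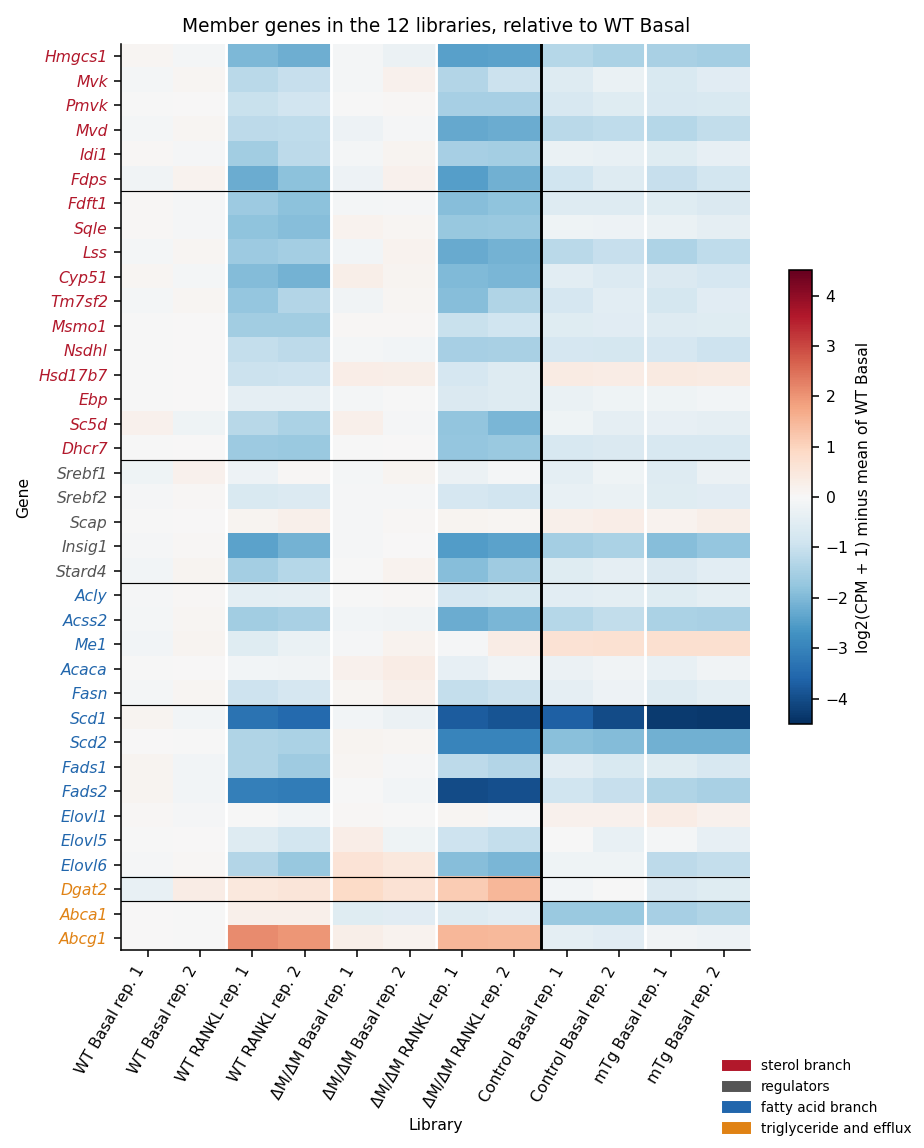
Each row is a member gene and each column a library, and the colour is log2(CPM + 1) minus the mean of the 2 WT Basal libraries (blue lower, red higher), with horizontal lines between the subgroups and a black vertical line between the experiments. In both RANKL conditions every sterol branch gene is blue, with Hmgcs1 at -2.11 in WT, while Abcg1 is red at 2.06.

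RANKL against Basal compares BMMs given RANKL for 5 days, which turns them into osteoclasts, with Basal BMMs, whose time in culture may also differ. In WT cells, 29 of the 37 members fell and 2 rose, against 22% of all 11691 tested genes that fell and 40.6% that rose (limma, Benjamini-Hochberg adjusted p under 0.05). In Mir182ΔM/ΔM cells, 30 fell and 1 rose, against 26.4% and 30.4% of all genes, and the same counts were obtained without the WT RANKL libraries. All 29 genes that fell in WT also fell in Mir182ΔM/ΔM, where 2026 of the 11691 genes fell in both. For 25 of the 29 the fitted fall was larger in Mir182ΔM/ΔM. The median difference between the 2 responses was -0.18 for the members and -0.15 for all genes. The count is thus not read as a result about the members. All 17 genes of the sterol branch fell in both genotypes, by log2 fold changes from -2.11 for Hmgcs1 to -0.41 for Ebp in WT and from -2.28 for Fdps to -0.55 for Ebp in Mir182ΔM/ΔM. The median of the branch was -1.53 and -1.73, beside 0.19 and 0.05 over all tested genes. With TMM factors, which rescale each library for its composition, the median of all genes in WT moved to -0.0044, the shares of all genes became 30.5% lower and 28.8% higher, and 32 members fell and 1 rose. With the replicate number as a block, 31 members fell and 4 rose in WT against 29% and 52.8% of all genes, and 31 fell and 2 rose in Mir182ΔM/ΔM against 36.3% and 42.7%.

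Among the mevalonate steps, Hmgcs1 showed the largest fall in WT. It was at 481 and 419 CPM in WT Basal and 109 and 98.2 CPM in WT RANKL (log2 fold change -2.11 ± 0.10 (SE), adjusted p = 2.5e-06), and at 424 and 376 CPM in Mir182ΔM/ΔM Basal and 81.5 and 84.2 CPM in Mir182ΔM/ΔM RANKL (log2 fold change -2.25 ± 0.10 (SE), adjusted p = 2.4e-06). The RANKL libraries of both genotypes lay below every Basal library of the experiment. Mvd, which makes isopentenyl diphosphate from the mevalonate chain, went from 84.2 and 95.3 to 38.6 and 40.1 CPM in WT and from 76.1 and 87.2 to 17.3 and 18.5 CPM in Mir182ΔM/ΔM, so that the groups did not overlap in either genotype and the lowest values were those of Mir182ΔM/ΔM RANKL. Fdps, whose product farnesyl diphosphate stands at the fork between sterols and protein prenylation and which is the target of bisphosphonate drugs, had log2 fold changes of -2.03 ± 0.20 and -2.28 ± 0.20 (SE) in WT and Mir182ΔM/ΔM. The kinases Mvk (-1.13 and -1.20) and Pmvk (-0.92 and -1.52) and the isomerase Idi1 (-1.36 and -1.53) also fell.

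The enzymes after farnesyl diphosphate fell in the same way. The squalene-making Fdft1 changed by -1.74 in WT and -1.79 in Mir182ΔM/ΔM on the log2 scale, and the squalene epoxidase Sqle, a rate-limiting enzyme, by -1.86 and -1.80. Lanosterol synthase, Lss, changed by -1.59 and -2.20, and the lanosterol demethylase Cyp51 by -2.04 and -2.21. Msmo1, which oxidises the remaining methyl groups, was at 234 and 239 CPM in WT Basal, 79.5 and 79.9 in WT RANKL, 243 and 247 in Mir182ΔM/ΔM Basal and 118 and 127 in Mir182ΔM/ΔM RANKL, which makes it a gene whose fall was smaller in Mir182ΔM/ΔM. Its partners in demethylation, Nsdhl (-1.12 and -1.37) and Hsd17b7 (-0.96 and -0.95), fell less than Cyp51 in the values of both genotypes. The late reductases and desaturases Tm7sf2 (-1.53 and -1.60), Sc5d (-1.34 and -2.01) and Dhcr7 (-1.65 and -1.73) fell as well. The sterol isomerase Ebp had the smallest values of the branch (-0.41 ± 0.06 and -0.55 ± 0.06, SE), and its adjusted p was 0.0011 in WT and 0.00029 in Mir182ΔM/ΔM.

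The regulators divided. Insig1, which retains the Scap complex in the endoplasmic reticulum, was at 237 and 259 CPM in WT Basal and 46.1 and 55.7 CPM in WT RANKL (log2 fold change -2.26 ± 0.10 (SE), adjusted p = 2.2e-06). In Mir182ΔM/ΔM it was at 237 and 251 CPM in Basal and 42.5 and 45.6 CPM in RANKL cells (log2 fold change -2.45 ± 0.10 (SE), adjusted p = 2.1e-06), and neither genotype's groups overlapped. Stard4, a cytosolic sterol carrier, was at 77.3 and 90.1 CPM in WT Basal, 28.4 and 33.6 in WT RANKL, 83.1 and 94.1 in Mir182ΔM/ΔM Basal and 21.6 and 26.8 in Mir182ΔM/ΔM RANKL (log2 fold changes -1.41 and -1.83). Srebf2, the main activator of the sterol genes, was at 317 and 348 CPM in WT Basal, 207 and 217 in WT RANKL, 319 and 322 in Mir182ΔM/ΔM Basal and 195 and 184 in Mir182ΔM/ΔM RANKL, and it fell in both genotypes (-0.65 and -0.75). Thus 3 of the 5 regulators fell in each genotype.

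Srebf1 and Scap did not pass the test. Srebf1, whose SREBP-1c form favours fatty acid genes, was at 112 and 150.0 CPM in WT Basal and 112 and 136 CPM in WT RANKL (-0.07, adjusted p = 0.71), and at 121 and 141 CPM and 108 and 121 CPM in Mir182ΔM/ΔM Basal and RANKL (-0.20, adjusted p = 0.34). In every condition the library of replicate 2 was the higher of the pair, and the difference in Mir182ΔM/ΔM passed once the block was fitted (-0.20, adjusted p = 0.00050). Scap, the escort of the SREBP proteins, was at 52.3 and 54.1 CPM in WT Basal, 58.5 and 62.2 in WT RANKL, 51.4 and 54.9 in Mir182ΔM/ΔM Basal and 57.4 and 56.2 in Mir182ΔM/ΔM RANKL, with log2 fold changes of 0.18, adjusted p = 0.060 in WT and 0.10, adjusted p = 0.28 in Mir182ΔM/ΔM. With the block the WT difference passed (0.18, adjusted p = 0.0016), and it was within the median shift of 0.19 of all genes in that comparison.

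In the fatty acid branch, 9 of 12 genes fell in WT and 10 of 12 in Mir182ΔM/ΔM, and the falls of the desaturases included the largest of the 37 genes. Scd1, which makes monounsaturated fatty acids from saturated ones, was at 99.1 and 83.4 CPM in WT Basal and 8.26 and 7.05 CPM in WT RANKL, and at 84.1 and 74.9 and 5.81 and 5.27 CPM in Mir182ΔM/ΔM (-3.41 ± 0.12 and -3.62 ± 0.12 on the log2 scale, SE). Basal values were thus 11.9-fold those after RANKL in WT and 14.3-fold in Mir182ΔM/ΔM. Fads2, the delta-6 desaturase of polyunsaturated fatty acids, was at 97.1 and 82.6 CPM in WT Basal, 9.70 and 9.25 in WT RANKL, 88.4 and 81.5 in Mir182ΔM/ΔM Basal and 4.53 and 4.88 in Mir182ΔM/ΔM RANKL (-3.11 ± 0.10 and -3.91 ± 0.10). Its RANKL and Basal groups were the most widely separated of the branch in Mir182ΔM/ΔM. Scd2, the related desaturase encoded beside Scd1 on chromosome 19, went from 752 and 721 to 289 and 275 CPM in WT and from 803 and 774 to 92.6 and 92.1 CPM in Mir182ΔM/ΔM (-1.38 ± 0.06 and -3.08 ± 0.06). Scd1 and Scd2 are close paralogs, and how reads that fit both were assigned is not given in the sources used here.

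Elovl6, which lengthens palmitate, was at 39.1 and 42.2 CPM in WT Basal, 15.8 and 11.7 in WT RANKL, 62.5 and 57.1 in Mir182ΔM/ΔM Basal and 10.1 and 9.09 in Mir182ΔM/ΔM RANKL (-1.51 ± 0.14 and -2.52 ± 0.14). It had the highest level in Mir182ΔM/ΔM Basal and the lowest after RANKL in the same genotype. Fads1, the delta-5 desaturase and neighbour of Fads2 on chromosome 19, changed by -1.48 and -1.27, and the polyunsaturated fatty acid elongase Elovl5 by -0.70 and -1.05. Among the suppliers of carbon, Acss2, which activates acetate, fell most (-1.50 and -2.01), followed by Fasn (-0.84 and -1.18) and Acly (-0.43 and -0.73). Acaca passed the test in Mir182ΔM/ΔM (-0.52, adjusted p = 0.0027) and not in WT (-0.15, adjusted p = 0.21), and its interaction gave adjusted p = 0.089. Me1, a source of NADPH, was at 14.9 and 18.2 CPM in WT Basal, 11.1 and 13.1 in WT RANKL, 15.9 and 18.4 in Mir182ΔM/ΔM Basal and 15.9 and 20.7 in Mir182ΔM/ΔM RANKL, and passed in neither (-0.42, adjusted p = 0.056 and 0.08, adjusted p = 0.68). Elovl1, the elongase of very long saturated chains and a carrier of the TTGCCAA run, was at 173 and 164, 168 and 156, 176 and 168 and 179 and 163 CPM in the 4 conditions in the same order (-0.06, adjusted p = 0.52 in WT and -0.01, adjusted p = 0.94 in Mir182ΔM/ΔM). In WT, Me1 and Acaca passed as lower with the replicate block (-0.42, adjusted p = 3.8e-05 and -0.15, adjusted p = 0.033) and Me1, Acaca and Elovl1 with TMM factors (-0.61, -0.35 and -0.26).

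Abcg1 rose in both genotypes and Abca1 in WT. Abcg1, which loads sterol onto high density lipoprotein, was at 68.2 and 68.1 CPM in WT Basal and 300.4 and 275 CPM in WT RANKL (log2 fold change 2.06 ± 0.07 (SE), adjusted p = 7.4e-07), and at 82.5 and 75.4 and 195 and 191 CPM in Mir182ΔM/ΔM Basal and RANKL (log2 fold change 1.28 ± 0.07 (SE), adjusted p = 8.2e-06). All RANKL libraries were above all Basal libraries, and those of WT were above those of Mir182ΔM/ΔM. Abca1, which transfers sterol to apolipoproteins, was at 314 and 305 CPM in WT Basal and 366 and 359.8 CPM in WT RANKL (log2 fold change 0.23 ± 0.06 (SE), adjusted p = 0.011), and at 214 and 216 and 209 and 222 CPM in Mir182ΔM/ΔM (0.00, adjusted p = 0.97). The rise in WT was lost with TMM factors (0.02, adjusted p = 0.74) and without WT RANKL replicate 1 or WT Basal replicate 2 (adjusted p 0.059 to 0.060). Dgat2, the last enzyme of triglyceride synthesis, was low throughout, at 1.07 and 2.36 CPM in WT Basal, 2.67 and 2.81 in WT RANKL, 3.81 and 3.13 in Mir182ΔM/ΔM Basal and 4.89 and 6.41 in Mir182ΔM/ΔM RANKL, with 0.50, adjusted p = 0.096 in WT and 0.57, adjusted p = 0.071 in Mir182ΔM/ΔM. With the replicate block it passed as higher in both (0.50, adjusted p = 0.0055 and 0.57, adjusted p = 0.0023). The summed osteoclast markers also rose with RANKL, to 9938 to 10274 CPM in WT and 3070 to 3079 CPM in Mir182ΔM/ΔM. Their part in the changes of the members was not tested.

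**Figure D2:**
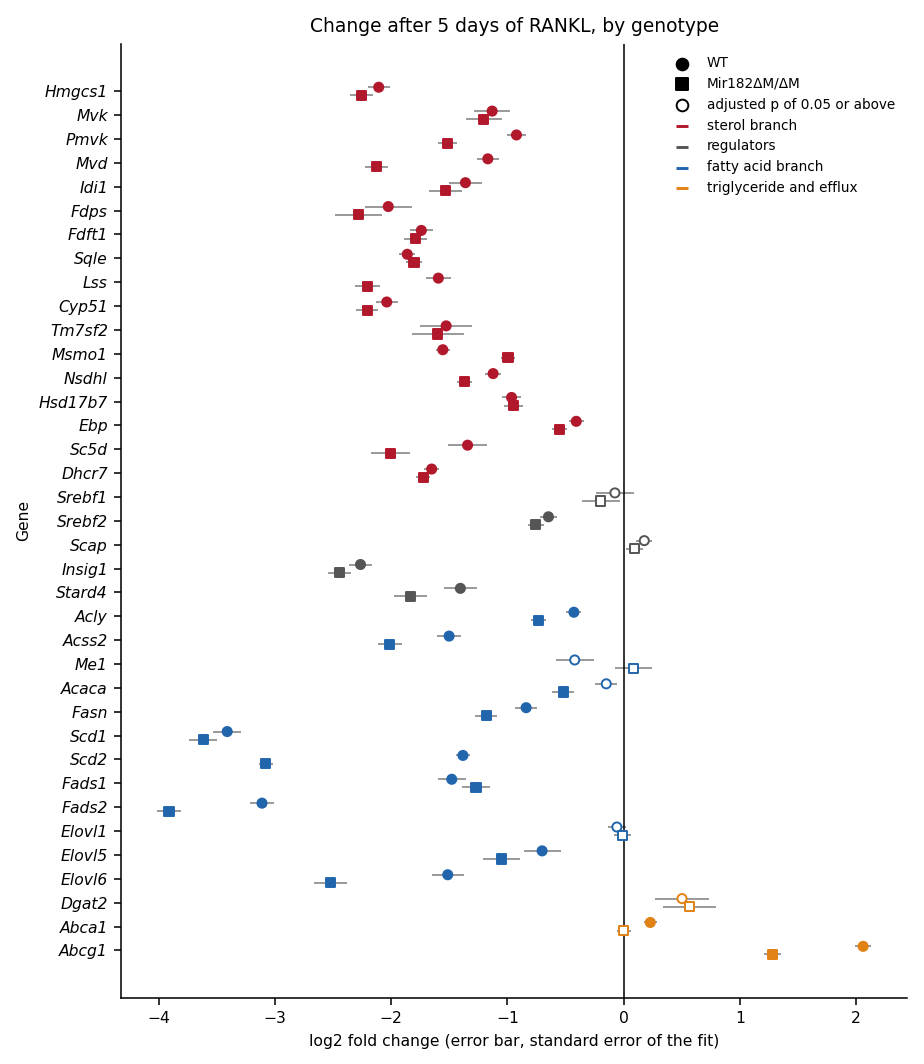
For each member the log2 fold change of RANKL against Basal is drawn for WT (circles) and Mir182ΔM/ΔM (squares) with the standard error of the limma fit, coloured by group, and open symbols did not pass the adjusted p threshold of 0.05. All 17 sterol genes lie left of 0 in both genotypes, whereas Abcg1 lies right of 0 at 2.06 and 1.28.

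The members' promoters were also compared by their letters, whether or not the gene fell with RANKL, since SREBP proteins are known to act at sterol regulatory elements beside NF-Y boxes. RefSeq promoter windows of 300 bases (GRCm38.p6) were listed for 28 of the 37 members, 36 windows in all because some genes have several starts, whose windows can overlap. On either strand, the NF-Y box CCAAT occurred in 24 of these 36 windows, or 66.7%, in 14 of 17 windows of the sterol branch, or 82.4%, and in 6 of 11 of the fatty acid branch, or 54.5%, against 37.4% of all 32851 windows. The sterol regulatory element TCACNCCAC occurred in 1 of 36, that of Hmgcs1, against 1.24% of all windows, and the E-box CACGTG in 8 of 36, or 22.2%, against 7.15%. By branch the E-box was in 3 of 17 sterol windows, or 17.6%, and 1 of 11 fatty acid windows, or 9.09%. Its other windows belong to Scap, Insig1 and Abca1. None of these runs overlaps another within a shown window. The windows of Hmgcs1, the sterol gene with the largest fall in WT, of Insig1, the regulator with the largest fall, and of Fads2, the gene with the largest fall in Mir182ΔM/ΔM, are printed 5′ to 3′ on the gene's strand with every match on either strand in capitals. A CCAAT box on the other strand reads ATTGG.
Hmgcs1 (chr13:119690101-119690400, plus strand): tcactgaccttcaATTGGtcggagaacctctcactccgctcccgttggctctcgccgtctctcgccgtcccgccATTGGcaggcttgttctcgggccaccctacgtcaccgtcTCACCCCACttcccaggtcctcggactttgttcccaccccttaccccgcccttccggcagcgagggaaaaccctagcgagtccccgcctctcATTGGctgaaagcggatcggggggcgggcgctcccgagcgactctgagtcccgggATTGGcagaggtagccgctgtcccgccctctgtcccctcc
Insig1 (chr5:28071162-28071461, plus strand): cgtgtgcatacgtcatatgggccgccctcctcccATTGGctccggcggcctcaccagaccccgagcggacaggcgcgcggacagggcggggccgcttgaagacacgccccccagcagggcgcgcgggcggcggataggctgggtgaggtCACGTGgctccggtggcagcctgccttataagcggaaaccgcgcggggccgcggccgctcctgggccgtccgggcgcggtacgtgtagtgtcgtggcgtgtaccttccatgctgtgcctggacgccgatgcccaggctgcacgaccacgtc
Fads2 (chr19:10101454-10101753, minus strand): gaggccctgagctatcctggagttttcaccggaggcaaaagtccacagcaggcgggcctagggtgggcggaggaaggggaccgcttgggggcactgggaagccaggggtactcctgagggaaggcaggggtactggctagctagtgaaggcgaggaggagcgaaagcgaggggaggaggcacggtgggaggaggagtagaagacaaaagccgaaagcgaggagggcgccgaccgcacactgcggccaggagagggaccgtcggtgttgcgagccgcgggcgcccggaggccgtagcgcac
The Hmgcs1 window holds 1 sterol regulatory element match and 4 CCAAT matches, the Insig1 window 1 CCAAT and 1 CACGTG match, and the Fads2 window none of the searched runs.

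The branches were set side by side by the mean log2(CPM + 1) of their genes in each library, a description with no test because genes are not replicates. The sterol mean was 6.35 and 6.36 in WT Basal, 4.89 and 4.94 in WT RANKL, 6.33 and 6.40 in Mir182ΔM/ΔM Basal and 4.67 and 4.76 in Mir182ΔM/ΔM RANKL. The fatty acid mean was 6.82 and 6.82, 5.60 and 5.54, 6.91 and 6.86 and 5.22 and 5.25 in the same order. With RANKL the sterol branch thus differed by -1.44 and the fatty acid branch by -1.25 in WT, and by -1.65 and -1.65 in Mir182ΔM/ΔM. The gap between the branches, sterol minus fatty acid, moved by -0.19 in WT and by -0.0021 in Mir182ΔM/ΔM. After RANKL, Mir182ΔM/ΔM differed from WT by -0.20 in the sterol and -0.33 in the fatty acid branch, a gap of 0.14 with means over genes that turned to -0.15 with medians. With medians the gap of RANKL against Basal was -0.04 in WT and -0.09 in Mir182ΔM/ΔM, the opposite order, and with means the latter ran from -0.062 to 0.058 when 1 library was left out. In the other experiment the sterol mean was 5.75 and 5.80 in Control and 5.67 and 5.72 in Mir182mTg, and the fatty acid mean 6.09 and 6.04 and 5.87 and 5.85. The fatty acid mean was above the sterol mean in all 12 libraries.

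**Figure D3:**
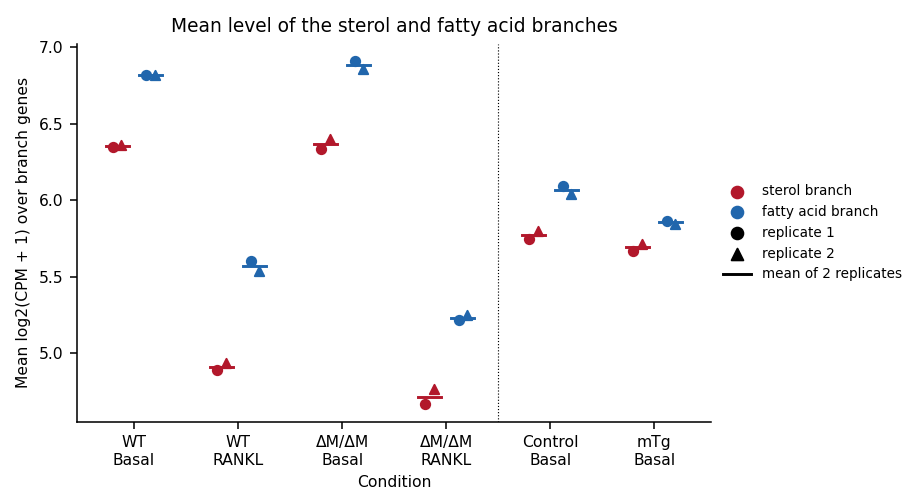
The mean log2(CPM + 1) over the 17 sterol branch genes (red) and the 12 fatty acid branch genes (blue) is drawn for each library, with circles for replicate 1, triangles for replicate 2 and a line at the mean of both, and the dotted line parts the 2 experiments. Both branches are lower in the RANKL conditions, where the sterol branch differs from Basal by -1.44 in WT and -1.65 in Mir182ΔM/ΔM.

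Mir182ΔM/ΔM against WT after RANKL asks which of the genes differ without miR-182 in differentiating cells. Here 15 members were lower and 4 higher in Mir182ΔM/ΔM, against 30.9% of all genes lower and 14.3% higher, and the median over members was -0.20 beside -0.14 over all genes. With TMM factors, which moved the median of all genes to -0.0037, 9 members were lower and 7 higher, against 20.2% and 20.9%. With the replicate block, 22 were lower and 7 higher, against 49.7% and 23.4%. Of the 17 sterol genes 7 were lower and 2 higher, of the 12 fatty acid genes 6 were lower and 1 higher, and of Dgat2 and the exporters 2 were lower and 1 higher. The comparison rests on the WT RANKL libraries described above, and the osteoclast markers summed to 3070 to 3079 CPM in Mir182ΔM/ΔM against 9938 to 10274 CPM in WT. Their part in the differences was not tested.

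The lower genes were led by Scd2, at 92.6 and 92.1 CPM in Mir182ΔM/ΔM and 289 and 275 CPM in WT (log2 fold change -1.60 ± 0.06 (SE), adjusted p = 3.0e-06). Mvd was at 17.3 and 18.5 against 38.6 and 40.1 CPM (log2 fold change -1.09 ± 0.10 (SE), adjusted p = 0.00013) and Fads2 at 4.53 and 4.88 against 9.70 and 9.25 CPM (log2 fold change -0.88 ± 0.10 (SE), adjusted p = 0.00047). In all of them both Mir182ΔM/ΔM libraries lay below both WT libraries. The exporters were also lower, Abca1 at 209 and 222 against 366 and 359.8 CPM (log2 fold change -0.75 ± 0.06 (SE), adjusted p = 6.8e-05) and Abcg1 at 195 and 191 against 300.4 and 275 CPM (log2 fold change -0.57 ± 0.07 (SE), adjusted p = 0.00068). Further lower genes were Acss2 (-0.65, adjusted p = 0.0020), Lss (-0.60, adjusted p = 0.0040), Pmvk (-0.57, adjusted p = 0.0012) and Nsdhl (-0.36, adjusted p = 0.0045). These 9 genes kept their call whichever of the 8 libraries was left out, and with TMM factors.

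The remaining lower genes were Hmgcs1 (-0.32), Ebp (-0.21), Sc5d (-0.57), Acly (-0.29), Scd1 (-0.40) and Elovl6 (-0.47), and none of these passed with TMM factors (adjusted p 0.20, 0.47, 0.084, 0.15, 0.12 and 0.10). Each of them also lost its call without single libraries. Hmgcs1, Scd1 and Elovl6 lost it without WT RANKL replicate 1 or without either Mir182ΔM/ΔM RANKL replicate (adjusted p 0.090 to 0.16 for Hmgcs1, adjusted p 0.068 to 0.16 for Scd1 and adjusted p 0.068 to 0.14 for Elovl6). Sc5d lost it without either WT RANKL replicate or Mir182ΔM/ΔM RANKL replicate 2 (adjusted p 0.054 to 0.15), Acly without Mir182ΔM/ΔM RANKL replicate 1 or WT RANKL replicate 2 (adjusted p 0.061 to 0.063), and Ebp whichever of the 8 libraries was left out (adjusted p 0.051 to 0.14).

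Of the higher genes, Msmo1 was at 118 and 127 CPM in Mir182ΔM/ΔM and 79.5 and 79.9 CPM in WT (log2 fold change 0.61 ± 0.06 (SE), adjusted p = 0.00020), with no overlap and a call that held whichever library was left out. Dgat2 was at 4.89 and 6.41 against 2.67 and 2.81 CPM (log2 fold change 0.82 ± 0.23 (SE), adjusted p = 0.025), Me1 at 15.9 and 20.7 against 11.1 and 13.1 CPM (log2 fold change 0.56 ± 0.16 (SE), adjusted p = 0.028) and Hsd17b7 at 21.8 and 24.8 against 18.4 and 18.9 CPM (log2 fold change 0.31 ± 0.08 (SE), adjusted p = 0.021). The groups did not overlap for these genes either. Dgat2 and Hsd17b7 lost the call without either WT RANKL replicate or Mir182ΔM/ΔM RANKL replicate 2 (adjusted p 0.078 to 0.13 and adjusted p 0.069 to 0.11), and Me1 without WT RANKL replicate 1 or Mir182ΔM/ΔM RANKL replicate 2 (adjusted p 0.14 to 0.15). Sqle (0.18, adjusted p = 0.079), Fads1 (0.23, adjusted p = 0.15) and Elovl1 (0.08, adjusted p = 0.41) passed as higher both with the block and with TMM factors. None of the 5 regulators passed in limma, with 1 at an unadjusted p under 0.05 and none by edgeR or DESeq2 on the recovered reads. With the block Srebf1, Srebf2, Insig1 and Stard4 passed as lower (-0.11, -0.16, -0.20 and -0.35), as did Fdps (-0.28), Fasn (-0.19) and Elovl5 (-0.30). Of the carriers of a miR-182 seed match, Abcg1, Scd1 and Sc5d were among the lower genes, and Elovl1, Insig1 and Tm7sf2 (-0.12, adjusted p = 0.70) did not pass.

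**Figure D4:**
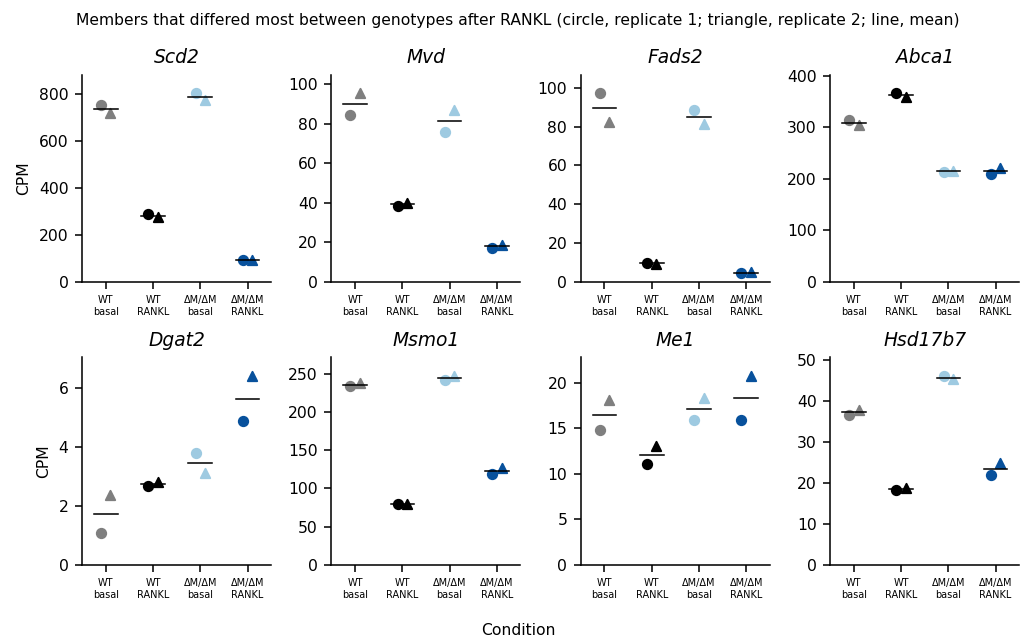
CPM of the 4 members with the largest difference in each direction between the genotypes after RANKL is drawn for the 8 loss of function libraries (circles, replicate 1; triangles, replicate 2; line, mean of both), each axis starting at 0. Scd2, Mvd, Fads2 and Abca1 are lower in Mir182ΔM/ΔM RANKL than in WT RANKL, and Dgat2, Msmo1, Me1 and Hsd17b7 higher, and Abca1 also differs at Basal.

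The interaction tests whether the response to RANKL differed between the genotypes. It passed for 9 members, 8 with a value below 0 (3 sterol genes, 4 fatty acid genes and Abcg1) and 1 above, against 17.1% and 7.44% of all genes, and the median was -0.18 for the members and -0.15 for all genes. Below 0 means a deeper fall or a smaller rise in Mir182ΔM/ΔM. Scd2 had the largest value of the 37 (log2 fold change -1.70 ± 0.08 (SE), adjusted p = 4.1e-05), followed by Elovl6 (log2 fold change -1.01 ± 0.20 (SE), adjusted p = 0.0098), Mvd (log2 fold change -0.96 ± 0.14 (SE), adjusted p = 0.0026) and Fads2 (log2 fold change -0.80 ± 0.14 (SE), adjusted p = 0.0069). Abcg1 (-0.78, adjusted p = 0.0017), Pmvk (-0.60, adjusted p = 0.0097), Lss (-0.61, adjusted p = 0.028) and Acss2 (-0.51, adjusted p = 0.041) were also below 0, and Msmo1 was above (log2 fold change 0.56 ± 0.08 (SE), adjusted p = 0.0032). Lss and Acss2 lost the call with TMM factors (-0.44, adjusted p = 0.095, and -0.35, adjusted p = 0.15), where 6 members were below and 1 above against 10.9% and 10.6% of all genes. They also lost it without 5 and 6 of the 8 libraries, in each case including both WT RANKL libraries (adjusted p 0.056 to 0.092 and adjusted p 0.069 to 0.13). With the replicate block 20 members were below and 3 above 0, against 42.8% and 16.1% of all genes. The genes that the block added below 0 ran from Sc5d (-0.66) and Stard4 (-0.43) to Hmgcs1 (-0.15), and Me1 (0.51) and Fads1 (0.21) were added above 0.

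Mir182ΔM/ΔM against WT at Basal asks about cells that had not met RANKL. Of the 37 members Abca1 alone passed without a block, lower in Mir182ΔM/ΔM at 214 and 216 CPM against 314 and 305 CPM in WT (log2 fold change -0.52 ± 0.06 (SE), adjusted p = 0.0050), so 1 of 37 members was lower and 0 higher, against 1.1% and 2.71% of all genes. At an unadjusted p under 0.05, for which no share of all genes is given, 5 were higher and 1 lower in limma. DESeq2 called 1 higher, with no share of all genes given, and edgeR called 0 higher, against 273 of all 12579 genes. The call of Abca1 was lost without either Mir182ΔM/ΔM Basal replicate (adjusted p 0.055 to 0.061). Elovl6, the highest of the 12 fatty acid genes in difference, was at 62.5 and 57.1 against 39.1 and 42.2 CPM with no overlap (0.54, adjusted p = 0.097), and without the WT RANKL libraries, which this comparison does not need, it passed (adjusted p = 0.049). The median over members was 0.02, beside 0.01 over all genes.

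The replicate block takes out whatever separates replicate 1 from replicate 2 in common, such as labelled molecule and aligner, which cannot be told apart. With this block, 9 members were higher and 4 lower in Mir182ΔM/ΔM at Basal, against 18.6% and 12.7% of all genes. The same numbers were obtained without the WT RANKL libraries. The higher genes were Elovl6 (0.54, adjusted p = 4.0e-05), Dgat2 (0.76, adjusted p = 0.00074), Hsd17b7 (0.29, adjusted p = 0.0011), Acaca (0.26), Abcg1 (0.21), Cyp51 (0.19), Fasn (0.15), Sqle (0.12) and Scd2 (0.10). The lower genes were Abca1 (-0.52, adjusted p = 1.3e-10), Scd1 (-0.19), Hmgcs1 (-0.17) and Mvd (-0.14). Apart from Elovl6, Dgat2 and Abca1, these differences were no larger than that of Hsd17b7.

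Mir182mTg against Control asks the reverse question in cells with added miR-182. In edgeR's quasi-likelihood test 1 of 37 members was lower and 0 higher, against 0.157% and 0.0993% of all 12081 tested genes. The gene was Elovl6, at 17.5 and 18.8 CPM in Mir182mTg and 35.2 and 35.1 CPM in Control (log2 fold change -0.96 ± 0.09 (SE), adjusted p = 0.045), and it passed as well by DESeq2 and limma and without each library. At an unadjusted p under 0.05, 7 members were lower and 2 higher, and DESeq2 and limma called 0 higher. No share of all genes is given at that unadjusted threshold, so those counts have no background beside them. Elovl6 carried no seed match in its annotated 3′ UTR. The median of the 37 was -0.09, beside -0.0016 over all genes.

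The replicate block, fitted with 2 groups to 4 libraries, leaves little spread per gene. Its p-values therefore lean on edgeR's estimate shared across genes. With this block 15 members were lower and 2 higher in Mir182mTg, against 8.15% and 6.94% of all genes. Beside Elovl6, the lower ones with the largest differences were Dgat2, at 0.666 and 0.788 against 1.44 and 1.63 CPM (-1.08, adjusted p = 0.012), Scd1, at 3.66 and 3.51 against 6.23 and 4.61 CPM (-0.61, adjusted p = 0.0070), Fads2, at 34.6 and 31.8 against 47.8 and 43.0 CPM (-0.46, adjusted p = 8.7e-06), and Insig1, at 65.0 and 73.7 against 84.7 and 92.3 CPM (-0.36, adjusted p = 7.3e-06). In each of these both Mir182mTg libraries lay below both Control libraries. The others were Acss2, Scd2, Srebf2, Fdps, Fasn, Cyp51, Sqle, Hmgcs1, Lss and Srebf1, with values from -0.27 for Acss2 to -0.12 for Srebf1. Srebf2 was at 229 and 234 against 266 and 268 CPM, Srebf1 at 85.8 and 107 against 95.3 and 113, Scap at 59.0 and 64.3 against 62.3 and 65.1 and Stard4 at 52.9 and 60.1 against 57.3 and 62.4 CPM. The higher ones were the exporters, Abca1 at 110.0 and 122 against 96.4 and 95.9 CPM (0.26, adjusted p = 0.00029) and Abcg1 at 61.3 and 58.6 against 49.8 and 48.1 CPM (0.29, adjusted p = 0.00027). The neutrophil markers also differed between the groups, with sums of 82.6 to 85.5 CPM in Mir182mTg and 41.7 to 43.3 CPM in Control, as did the osteoclast markers, with sums of 62.9 to 74.9 CPM and 40.7 to 48.5 CPM, and their part in the differences was not tested.

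**Figure D5:**
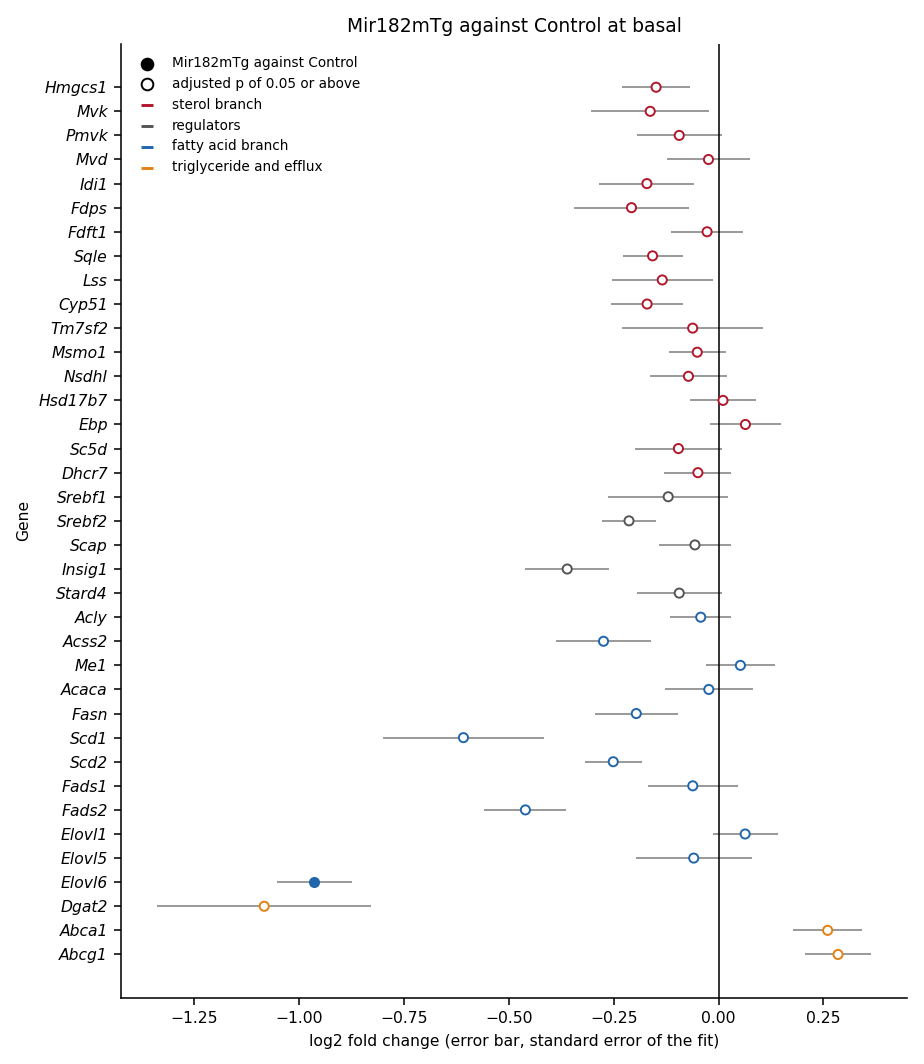
For each member the log2 fold change of Mir182mTg against Control is drawn with a standard error back-calculated from edgeR's F statistic, coloured by group. The only filled symbol is Elovl6 at -0.96, which passed the adjusted p threshold of 0.05 without a block. Scd1 (-0.61), Fads2 (-0.46) and Insig1 (-0.36) lie to the left of every sterol gene, and the exporters Abca1 and Abcg1 to the right of 0.

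Control and WT cells are both Basal BMMs with LysMcre(+), from different experiments, and their values are given side by side without a test, a comparison added after the values were seen. Both Control libraries lay below both WT Basal libraries for 31 of 37 members and above them for 4, where 28.1% of the 11691 genes lay below and 44.1% above. Of the 17 sterol genes 16 lay below, and Hsd17b7 above, at 48.3 and 47.5 CPM in Control and 36.7 and 37.8 CPM in WT. Scd1 was at 6.23 and 4.61 CPM in Control and 99.1 and 83.4 CPM in WT, Hmgcs1 at 185 and 168 and 481 and 419, and Abca1 at 96.4 and 95.9 and 314 and 305 CPM. The branch means differed by -0.58 for sterol and -0.75 for fatty acid genes, beside a median of 0.10 over all genes. Experiment and group cannot be told apart here.

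The WT RANKL libraries resembled the Control libraries in Lyz2 and Ifi202b, so the members were also set against Control. Both WT RANKL libraries lay below both Control libraries for 28 of 37 members, 16 of the 17 sterol genes among them, where 32% of all genes did. The median over the sterol branch was -0.96, a smaller difference than the -1.51 against WT Basal on the same measure. Insig1 was at 46.1 and 55.7 CPM in WT RANKL and 84.7 and 92.3 CPM in Control, and Mvd at 38.6 and 40.1 and 38.1 and 39.8 CPM, the latter with overlap. Scd1, at 8.26 and 7.05 against 6.23 and 4.61 CPM, and Scd2, at 289 and 275 against 198 and 189 CPM, were higher in WT RANKL than in Control. Their order against WT Basal was the opposite. Of the 12 fatty acid genes 8 lay below and 2 above, with a median of -0.42, against -1.11 relative to WT Basal. Dgat2 and both exporters lay above, Abca1 at 366 and 359.8 against 96.4 and 95.9 CPM. Of all 37 members 5 lay above, for which no share of all genes is given. In Mir182ΔM/ΔM, where both groups had low Lyz2 and high Ifi202b, all 17 sterol genes were lower with RANKL by limma, against 26.4% of all genes.

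Of 36 other genes of lipid handling, 21 fell and 6 rose with RANKL in WT, and 22 fell and 6 rose in Mir182ΔM/ΔM, where 22% of all genes fell and 40.6% rose in WT and 26.4% and 30.4% in Mir182ΔM/ΔM. The block gave 22 that fell and 10 that rose in WT, against 29% and 52.8% of all genes. Of the 8 further sterol synthesis and control genes, 4 fell and 1 rose in WT and 5 fell and 1 rose in Mir182ΔM/ΔM, with Acat2, which joins acetyl-CoA units, at -1.74 and -2.37. Of the 13 genes of uptake, storage and the liver X receptors, 9 fell and 2 rose in WT. Nr1h3, the liver X receptor alpha, rose by 2.55 and 3.83, and the lipoprotein receptor Vldlr by 3.69 and 4.35. Apoe, the apolipoprotein that carries exported sterol, was at 1791 and 1790 CPM in WT Basal and 282 and 286 CPM in WT RANKL (-2.65) and at 1467 and 1379 and 1317 and 1184 CPM in Mir182ΔM/ΔM. In Control it was at 311 and 285 CPM, near the WT RANKL values. What sets the WT RANKL libraries apart, and its part in the Apoe values, was not tested. Of the 15 other fatty acid and lipid genes, 8 fell and 3 rose in WT, the acyl-CoA synthetase Acsl1 by 3.00 and in Mir182ΔM/ΔM by 2.92.

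Between the genotypes after RANKL, 11 of these 36 genes were lower and 10 higher in Mir182ΔM/ΔM, against 30.9% and 14.3% of all genes. The lower count was 6 by edgeR and by DESeq2 on recovered reads, with 11 and 12 higher. Of all 12579 genes that edgeR tested, it called 2448 lower and 2481 higher, and no share of all genes is given for DESeq2. With the replicate block 18 were lower and 12 higher, against 49.7% and 23.4% of all genes. Apoe was higher (2.13, adjusted p = 2.0e-06), as was the lipoprotein lipase Lpl (1.23), and the phosphatidate phosphatase Lpin1 (-1.89) and the elongase Elovl7 (-1.66) were lower. For Apoe, this value and that of the interaction rest on WT RANKL libraries whose Apoe level was near that of Control. The interaction passed for 6 below and 8 above 0, led by Apoe (2.47), Elovl7 (-1.93), Lpin1 (-1.60) and Nr1h3 (1.29), against 17.1% and 7.44% of all genes. With the block it passed for 13 below and 12 above, against 42.8% and 16.1%. At Basal, Lpl (0.47) and the fatty acid receptor Cd36 (0.32) were higher in Mir182ΔM/ΔM and 0 were lower in limma, against 2.71% and 1.1% of all genes. At an unadjusted p under 0.05, for which no share of all genes is given, 2 were lower. By edgeR 1 was lower, against 135 of all 12579 genes, and DESeq2, for which no share is given, also called 1 lower. The block gave 6 higher and 6 lower, against 18.6% and 12.7% of all genes. In Mir182mTg, Apoe was lower at 179 and 181 CPM against 311 and 285 CPM in Control (-0.73, adjusted p = 0.047), and none of the 36 was higher in edgeR, with 3 higher at an unadjusted p under 0.05 and 0 by DESeq2 or limma, against 0.157% of all genes lower and 0.0993% higher. The block gave 6 lower and 8 higher, against 8.15% and 6.94% of all genes.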

How the data were processed

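RNA-seq of BMMs was analysed in 8 loss of function and 4 gain of function libraries, grouped by the genotype and RANKL labels. The authors aligned reads to mm10 (TopHat in the submitters' processing notes for replicate 1, HISAT2 for replicate 2) and counted them per gene with HTSeq. The deposited loss of function values are CPM, the deposited gain of function values are counts, and the deposited replicate 1 files add RPKM, that is CPM divided by 1 length per gene. Versions, the annotation and the treatment of reads with several alignments are not given in the sources used here. The extraction protocol describes poly-A selection for every library, while the labelled molecule of replicate 2 is total RNA.

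For the loss of function libraries, limma 3.58.1 (R 4.3.3, lmFit, eBayes with trend) was fitted to log2(CPM + 1) in 1 model of 4 groups, over the 11691 genes that reached 1 CPM in 2 or more of the 8 libraries. A fold change on this scale understates the change of low genes. For the gain of function counts, edgeR 4.0.16 (TMM, filterByExpr, quasi-likelihood test) was used on 12081 genes. All 37 members passed both filters. A gene was called at a Benjamini-Hochberg adjusted p under 0.05 over all genes tested, with no fold limit. Alternatives were another pseudocount, other filters, TMM factors, the replicate block, the samples fitted, each library left out, DESeq2 1.42.0, and edgeR on whole reads recovered from the CPM. There 100% of values were whole within 0.1 read, and edgeR called 7215, 6913, 408, 4929 and 2240 genes in the RANKL response of WT, of Mir182ΔM/ΔM, the Basal and RANKL genotype comparisons and the interaction. The fits were also run on simulated counts with the same dispersion for all genes and no difference shared by replicate numbers. These data do have such a shared difference, so that run does not measure the error rates here.

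Replicate numbers pair the libraries because a number marks the same labelled molecule and the same aligner in every condition. The log ratios of replicate 2 to replicate 1 correlated across genes between conditions (r = 0.69 to 0.76 in loss of function and 0.75 in gain of function). Between 24951280 and 33050619 reads per library fell on genes, and the members had 22 to 24613 reads in a library. Limits at 3 reads cover counting error only. The members and lists were chosen with earlier results of these data known. Values of every sample are given for the 4 called members with the largest change in each direction of each comparison, the regulators and the exporters, and up to 4 called genes are named among other lipid genes. The CPM files hold 27 gene names turned into dates, none of them a member, and names were taken from the count files. Sequences are from RefSeq and the GRCm38 genome.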

Additional observations from a re-analysis of the deposited data

Results flagged for a closer look

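The response to RANKL differed between WT and Mir182ΔM/ΔM cells for 9 of the 37 members in the limma test of the difference between the 2 responses. The share of all genes was 17.1% below and 7.44% above 0, so the count is near the background. It was below 0 for Scd2 (-1.70), Elovl6 (-1.01), Mvd (-0.96), Fads2 (-0.80), Abcg1 (-0.78), Lss (-0.61), Pmvk (-0.60) and Acss2 (-0.51), and above 0 for Msmo1 (0.56), on the log2 scale. Lss and Acss2 lost the call with TMM factors (adjusted p = 0.095 and 0.15) and without 5 and 6 of the 8 libraries. Of these genes Abcg1 alone rose with RANKL, by 2.06 in WT and 1.28 in Mir182ΔM/ΔM, and the other 8 fell in both genotypes. The WT RANKL libraries, on which every one of these values rests, also held Lyz2 at 4117 and 4288 CPM against 24.0 and 22.5 CPM in Mir182ΔM/ΔM RANKL, and its part in the values was not tested.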

How the results depend on the processing

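No fold change of a called member reversed. Over all members, comparisons and alternatives, 3524 values stayed on their side of the threshold, 167 newly passed and 83 no longer passed. A sign changed in 198 values, of which 0 were called with or without the alternative. The pseudocount of 0.1 CPM and the filter of 1 CPM in every library moved no call.

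With the replicate block, 4 members rose with RANKL in WT and 2 in Mir182ΔM/ΔM, 9 were higher and 4 lower at Basal, 7 were higher after RANKL, 3 were above and 20 below 0 in the interaction, and 2 were higher and 15 lower in Mir182mTg. The calls it changed are those counted in the report, and it moved no other count by over 1.5 times. With TMM factors, 1 rose in WT, and 7 were higher and 9 lower after RANKL. With TMM factors and the block, 1 rose in WT and 2 in Mir182ΔM/ΔM, 8 were higher and 5 lower at Basal, 8 were higher after RANKL and 5 above 0 in the interaction. With edgeR on recovered reads, 1 rose in WT, against 3536 of all 12579 genes. After RANKL 7 were higher and 9 lower, against 2481 and 2448 of all genes. Adding the block to edgeR gave 1 and 2 that rose, 9 higher and 6 lower at Basal, 8 higher after RANKL and 5 above 0. DESeq2 gave 1 that rose in WT, 1 higher at Basal and 8 lower after RANKL. With the 4 compared samples alone, 2 rose in Mir182ΔM/ΔM and 0 were lower at Basal by limma.

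Without the WT RANKL libraries, an alternative chosen after seeing the data, 1 member was higher at Basal, and with the block 9 were higher, 4 lower and 2 rose in Mir182ΔM/ΔM. Leaving out 1 library at a time gave 1 to 2 that rose and 29 to 30 that fell in WT, 1 to 2 and 30 in Mir182ΔM/ΔM, 0 to 1 higher and 0 to 1 lower at Basal, 1 to 4 and 10 to 14 after RANKL and 6 to 8 below 0 in the interaction. After RANKL the counts of higher members were 1 without WT RANKL replicate 1 or Mir182ΔM/ΔM RANKL replicate 2 and 2 without WT RANKL replicate 2. A lone library is then assumed to vary like the other groups. With medians in place of means over genes, the branch gap of RANKL against Basal in WT was -0.0363, and that of Mir182ΔM/ΔM against WT after RANKL reversed to -0.15. The cause of these changes was not tested.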
